A study of Rattus norvegicus with 12 samples.

Results

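The cytosolic ribosomal protein genes encode the proteins of the ribosome in the cytoplasm. They were taken as all genes whose symbol is Rpl or Rps followed by a number, with or without an ending in a, x, y or l, together with Rpsa, Rplp0, Rplp1 and Rplp2, and without the Rps6k kinases. Of 10411 genes with a probe set of their own on the array, 42 met this rule, 29 of the large subunit and 13 of the small subunit, each read from 1 probe set, that of the highest mean on the 12 arrays. The tissue was L4/L5 dorsal root ganglia, which house the cell bodies of sensory neurons next to the spinal cord. The donors were adult Sprague Dawley males of 2 genetic sub-lines, High Pain (HP) and Low Pain (LP). The 4 groups of 3 arrays were HP after spinal nerve ligation (SNL), HP after sham surgery, LP after SNL and LP after sham surgery. In the SNL groups the L4 and L5 spinal nerves were ligated and ganglia were taken at 3 days, and the sham operation left the nerve undamaged, with no time given. The ganglion is a mixture of neurons, glia, immune and vascular cells, and in such bulk RNA a change in the number of cells of a type and a change in RNA per cell cannot be told apart. The labels do not say whether replicates were separate animals or pools, so the p-values rest on the spread between these 3 samples a group, and that spread may be technical.

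A ribosome joins a small subunit, which binds the messenger RNA and decodes it, to a large subunit, which forms the peptide bonds. Each subunit is a core of ribosomal RNA with many small, mostly basic proteins, and cells make these proteins in nearly equal numbers from messenger RNAs that are among the most abundant in most tissues. Most of these messengers begin with a 5′ terminal oligopyrimidine (TOP) tract, a stretch of C and U through which mTOR signalling and the protein LARP1 control their translation. In sensory neurons, ribosomal proteins and their messengers are also found in axons, where local translation takes part in the response to injury.

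The ribosomal protein genes were higher after ligation as a family, and by a small, similar amount in most members. Averaged over the 2 lines, 32 of 42 rose and none fell, where 13% of all genes tested rose and 11.8% fell (limma, Benjamini-Hochberg adjusted p under 0.05 over all genes). In HP ganglia 20 rose and none fell (background 7.02% higher and 6.61% lower), and in LP ganglia 18 rose and none fell (background 7.66% and 6.79%). The median log2 difference of the 42 genes, SNL minus sham, was 0.38 in HP, 0.39 in LP and 0.39 on average, while the median over all genes tested was -0.00077, 0.023 and 0.0098. The difference was above 0 for 40 of 42 members in HP and for 42 of 42 in LP. On every SNL array the signal was above that on every sham array for 32 members in HP, where 17.2% of all genes were so placed, for 31 in LP (16.5%), and for 28 in both lines (9.85%). The largest fold of a called member on average was 1.63, for Rps3.

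Most measured genes of both subunits rose on average. The counts were 22 of 29 large subunit genes and 10 of 13 small subunit genes, with median log2 differences of 0.37 and 0.40. In HP the counts were 14 and 6, with medians of 0.35 and 0.39, and in LP they were 14 and 4, with medians of 0.37 and 0.40. The 13 genes called in both lines were 65% of the HP calls and 72.2% of the LP calls of the family. The same shares were not counted over all genes tested, so they do not show an agreement particular to the family. The 13 genes were Rpl4, Rpl7, Rpl12, Rpl13a, Rpl18, Rpl19, Rpl22, Rpl23, Rplp0, Rps3, Rps3a, Rps28 and Rpsa. Another 7 (Rpl3, Rpl5, Rpl6, Rpl7a, Rpl27a, Rps6 and Rps16) passed in HP alone and 5 (Rpl11, Rpl14, Rpl34, Rpl35 and Rpl35a) in LP alone, and the test of the difference between the lines, given further down, called none of these. A further 7 (Rpl24, Rpl26, Rpl41, Rps9, Rps15, Rps23 and Rps24) passed on the average of the lines but in neither line. The 10 that passed in none of these tests were Rpl3l, Rpl21, Rpl23a, Rpl27, Rpl30, Rpl37a, Rpl39, Rps15a, Rps27l and Rps29.

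**Figure D1:**
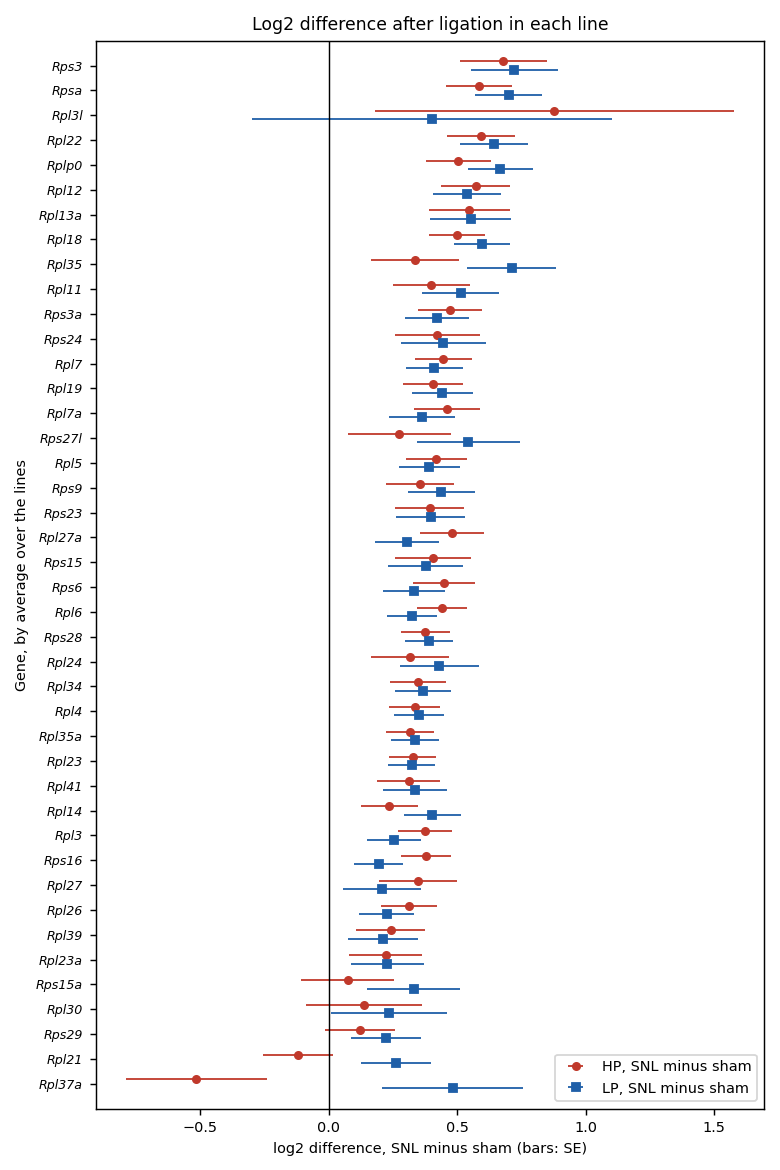
Log2 difference, SNL minus sham, of each of the 42 ribosomal protein genes in HP (circles) and LP (squares), with bars of 1 SE from the limma fit, ordered from top to bottom by the average over the lines. All 42 LP values and 40 of 42 HP values lie right of 0, Rpl3l has the widest bars, and Rpl37a, at the bottom, lies on opposite sides of 0 in the lines.

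The counts within a line lay close to the threshold and depended on single arrays, while the medians did not. The HP count of 20 was 0 without HP sham replicate 1, 1 without HP sham replicate 3, 5 without HP SNL replicate 1, 6 without its replicate 2, 2 without its replicate 3 and 13 when LP SNL replicate 3 was left out. The LP count of 18 was 10 without HP sham replicate 3, 11 without HP SNL replicate 1, 11 without HP SNL replicate 2, 6 without LP sham replicate 1, 4 without LP SNL replicate 1 and 4 without LP SNL replicate 3. The average count stayed between 28 and 33 when each array was left out in turn, and over the same fits the median of the family lay between 0.32 and 0.46 in HP, 0.32 and 0.44 in LP, and 0.33 and 0.43 on average.

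Seen array by array, the family moved nearly as 1 block. The median log2 signal of the 42 genes was 12.20, 12.16 and 12.19 on the HP SNL arrays, against 11.68, 11.90 and 11.72 on the HP sham arrays. It was 12.18, 11.85 and 12.18 on the LP SNL arrays, against 11.53, 11.76 and 11.72 on the LP sham arrays. LP SNL replicate 2 was thus the low array of its group and HP sham replicate 2 the high array of its group, and LP SNL replicate 2 lay below HP sham replicate 2. Without LP SNL replicate 2 the LP count was 16, and without HP sham replicate 2 the HP count was 18. Within each line the SNL and sham arrays did not overlap. The group means were 12.18 ± 0.02 in HP SNL, 11.77 ± 0.12 in HP sham, 12.07 ± 0.19 in LP SNL and 11.67 ± 0.12 in LP sham (SD, n = 3). The number of members above their own mean over the 12 arrays was 35, 40 and 39 of 42 on HP SNL arrays, against 3, 20 and 9 on HP sham arrays, and 39, 30 and 40 on LP SNL arrays, against 0, 3 and 8 on LP sham arrays. The median of the other genes among the brightest 10% lay between 11.08 and 11.21 on all 12 arrays.

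**Figure D2:**
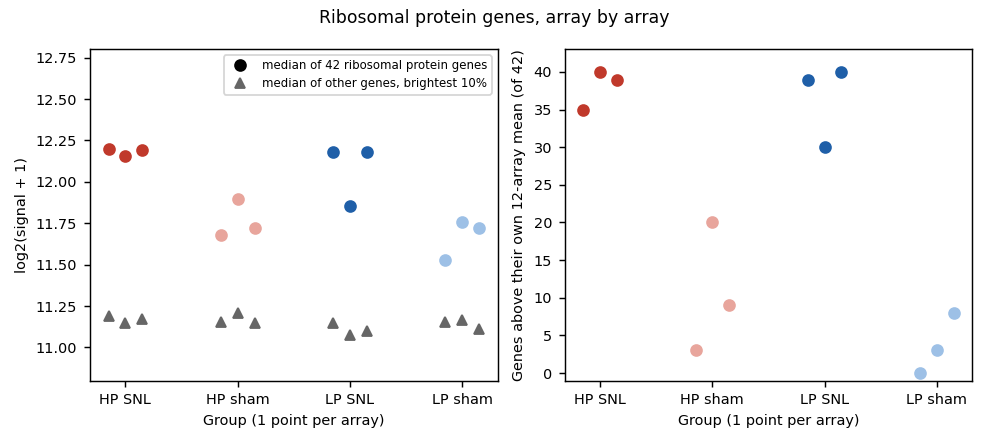
Left, the median log2(signal + 1) of the 42 ribosomal protein genes (circles) and of the other genes among the brightest 10% (triangles) on each array. Right, the number of the 42 genes above their own mean over the 12 arrays. HP SNL arrays have 35 to 40 genes above their mean and LP SNL arrays 30 to 40, and HP sham arrays have 3 to 20 and LP sham arrays 0 to 8.

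**Figure D3:**
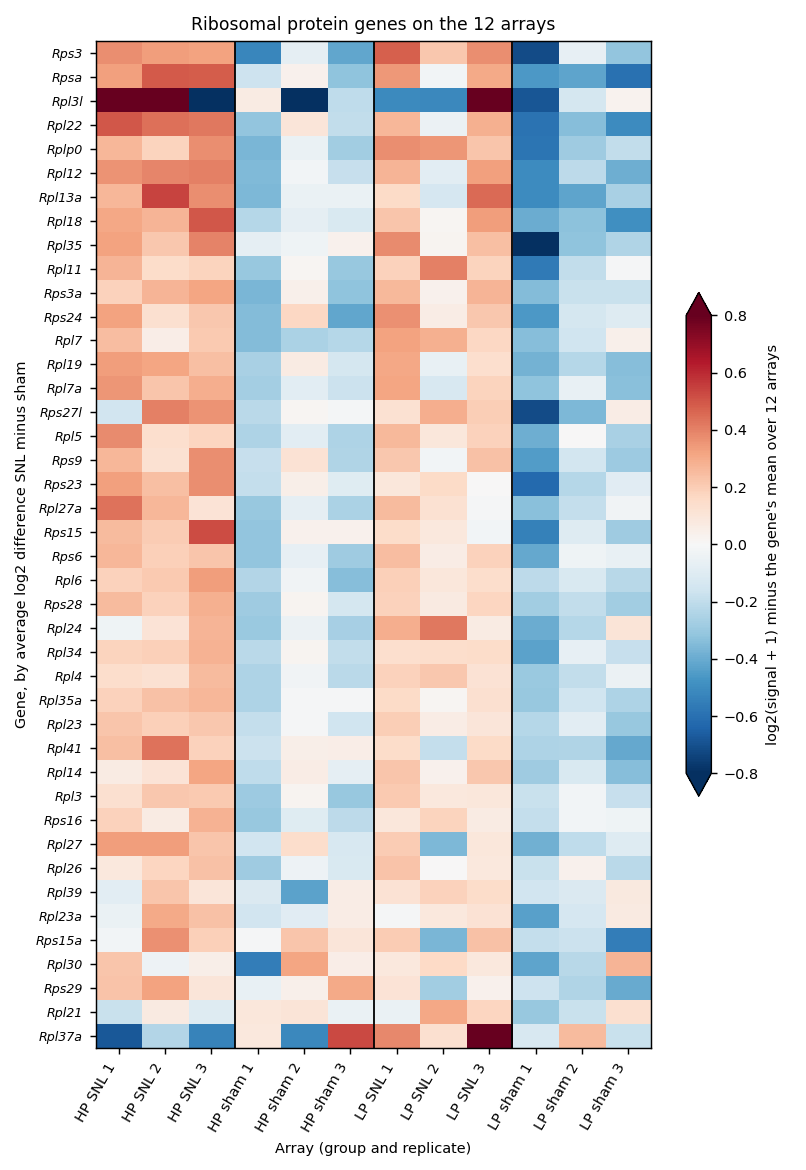
Log2(signal + 1) of each gene (rows, ordered by the average difference after ligation) minus that gene's mean over the 12 arrays (columns, by group and replicate), with colours ending at 0.8 in each direction, so that larger values of Rpl3l, Rpl35 and Rpl37a are not resolved. Most rows are above their mean on SNL arrays and below it on sham arrays, and the columns of HP sham replicate 2 and LP SNL replicate 2 are the palest of their groups.

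Probe set brightness does not compare the levels of different genes. The median member ranked within the brightest 1.5% of genes, and 38 of 42 within the brightest 6.3%. The other 4 were Rpl39, at rank 31.1%, Rps27l at 74.6%, Rpl30 at 83.4% and Rpl3l at 96.2%. The 1003 other genes among the brightest 10% had median log2 differences, SNL minus sham, of -0.02 in HP, -0.06 in LP and -0.04 on average, and on average 185 of them rose and 226 fell.

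Promoter windows are shown for 8 of the members named in the results, because the start of most of these messengers carries the TOP tract described above. The sequences are from RefSeq with the rat build GRCr8, run 5′ to 3′ on the gene's strand, and hold 30 bases before and 20 bases from the annotated start of 1 transcript of each gene. Capitals mark a run of at least 8 C or T letters that comes within 10 bases of the start. Of the 42 members, 37 matched a window. The first 6 lines are members that rose on average and have a run. Rpl37a had opposite differences in the lines, and Rps27l is a paralog with no such run in its window. Members that rose without a run in their window, such as Rpl12 and Rpl18, are not printed. The 8 lines therefore do not show whether a run goes with a rise.
Rps3: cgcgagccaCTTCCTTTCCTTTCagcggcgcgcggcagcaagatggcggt
Rpsa: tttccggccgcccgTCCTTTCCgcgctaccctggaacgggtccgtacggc
Rplp0: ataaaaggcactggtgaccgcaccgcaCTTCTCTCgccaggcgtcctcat
Rpl22: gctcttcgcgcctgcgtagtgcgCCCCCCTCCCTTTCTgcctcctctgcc
Rpl13a: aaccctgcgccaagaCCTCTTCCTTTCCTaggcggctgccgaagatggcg
Rpl35: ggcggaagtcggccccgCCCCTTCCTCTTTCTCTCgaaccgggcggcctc
Rpl37a: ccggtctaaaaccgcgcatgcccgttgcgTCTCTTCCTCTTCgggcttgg
Rps27l: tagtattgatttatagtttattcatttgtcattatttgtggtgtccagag
These windows lie at chr1:163195757-163195806 (minus strand, Rps3), chr8:128728849-128728898 (plus, Rpsa), chr12:46718371-46718420 (minus, Rplp0), chr5:168117931-168117980 (plus, Rpl22), chr1:104748894-104748943 (minus, Rpl13a), chr3:43165902-43165951 (minus, Rpl35), chr9:81748061-81748110 (plus, Rpl37a) and chr8:76443628-76443677 (plus, Rps27l).

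A pyrimidine run of this kind, searched on the gene's strand, was in 24 of the 37 member windows (64.9%), against 12.5% of the windows of all genes tested and 13.2% of all 33469 RefSeq windows. The member runs were 8 to 24 bases long, with a median of 13.5, and 14 spanned the annotated start. It was in 20 of 31 windows of members called on average (64.5%) and in 4 of 6 windows of members not called (66.7%). Other motifs were searched on both strands of the whole window of 300 bases. CCGGAAG, the core letters of ETS factor sites, was in 21.6% of member windows, 14.9% of the windows of genes tested and 8.75% of all windows, and its reverse complement can overlap a pyrimidine run. It was in more of the windows of mitochondrial ribosomal protein genes (32.2%) and ribosome biogenesis genes (51.2%) than of member windows. AANATGGC, the core letters of YY1 sites, was in 16.2% of member windows, 9.13% of those of genes tested and 6.96% of all windows. These letters hold ATG, so a match after the annotated start can be the start codon of the protein. In the printed windows of Rps3 and Rpl13a the match lies after that start. The shares are therefore not a count of YY1 sites. TATAAA, the core letters of the TATA box, was in 13.5% of member windows, 8.83% of those of genes tested and 14.2% of all windows. It was counted at any place in the window, so these shares are not a count of TATA boxes. These matches describe letters in annotated windows, and an annotated start can lie away from the start used in the ganglion. The start of the window's transcript was the start of the annotated gene for 19334 of 33460 windows checked. A window without a run can therefore miss a run at another start.

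Among the small subunit genes, Rps3 and Rpsa had the highest log2 differences on average. Rps3, which lines the entry of the messenger channel, had signals of 3667, 3579 and 3550.1 on HP SNL arrays, against 1978, 2697 and 2128 on HP sham arrays. On LP SNL arrays it had 3949, 3299 and 3676, against 1728, 2710.5 and 2276 on LP sham arrays. Every SNL array was above every sham array in both lines, and the log2 difference was 0.68 ± 0.17 in HP and 0.72 ± 0.17 in LP (SE, adjusted p = 0.0253 and 0.0173). Rpsa, a protein at the head of the subunit that is also known as a laminin receptor precursor, had signals of 4588, 5141 and 5129 on HP SNL arrays, against 3259, 3747 and 2929 on HP sham arrays. In LP ganglia the SNL arrays had 4653, 3599 and 4505, against 2658.5, 2733 and 2423 on LP sham arrays. The groups did not overlap within a line, and the average log2 difference was 0.64 ± 0.09 (adjusted p = 0.000606). The other 2 probe sets of Rpsa had average log2 differences of 0.59 and 0.44, and both passed among all probe sets (adjusted p = 0.000774 and 0.00243).

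Rps6, the classic substrate of the S6 kinases downstream of mTOR, rose less. It had signals of 7975.5, 7588 and 7748 on HP SNL arrays, against 5338, 6353 and 5449.7 on HP sham arrays. The LP SNL arrays had 7863, 6911.5 and 7546, against 4988, 6480.2 and 6371 on LP sham arrays. The groups did not overlap in either line, and the log2 difference was 0.45 ± 0.12 in HP (adjusted p = 0.0348), 0.33 ± 0.12 in LP (adjusted p = 0.0996) and 0.39 ± 0.08 on average (adjusted p = 0.00727). All 5 measured genes for proteins of the decoding region and messenger channel, Rps3, Rps15, Rps16, Rps23 and Rps28, rose on average, with log2 differences between 0.29 and 0.70. Rps29, a small zinc-binding protein of the head, did not pass: its signals were 7531, 8026 and 6869 on HP SNL arrays, against 6162, 6594 and 7928 on HP sham arrays, and its average log2 difference was 0.17 ± 0.10 (adjusted p = 0.236). The HP value of Rps29, 0.12 ± 0.14, was -0.02 after quantile normalization.

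In the large subunit, Rplp0, the base of the stalk that recruits translation factors, was the single stalk gene with a probe set of its own. It had signals of 4853, 4562 and 5225 on HP SNL arrays, against 3127, 3891 and 3328 on HP sham arrays. On LP SNL arrays it had 5223.5, 5145 and 4696, against 2693, 3312 and 3524 on LP sham arrays. The groups were apart in both lines, with log2 differences of 0.50 ± 0.13 in HP and 0.67 ± 0.13 in LP (adjusted p = 0.0256 and 0.00610). Rpl22, a protein near the exit of the peptide tunnel that has a paralog, Rpl22l1, had signals of 4291, 4143 and 4079.9 on HP SNL arrays, against 2446, 3251 and 2660.4 on HP sham arrays. Among LP arrays, those after SNL had 3656, 2946 and 3704, against 2019.6, 2403.5 and 2149.9 on LP sham arrays. Ligated arrays were again above all sham arrays of their line, and the average log2 difference was 0.62 ± 0.09 (adjusted p = 0.000896).

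Rpl18, Rpl12 and Rpl13a came next among the large subunit genes that rose on average. Rpl18 had an average log2 difference of 0.55 ± 0.08 and the smallest adjusted p of the family, 0.00058. Its signals were 3373, 3288 and 3854 on HP SNL arrays, against 2325, 2589 and 2505 on HP sham arrays, and 3176, 2754 and 3431 on LP SNL arrays, against 2069, 2171 and 1936.5 on LP sham arrays. Rpl12, at the base of the stalk, had an average log2 difference of 0.56 ± 0.09 (adjusted p = 0.00178). Rpl13a, which in human monocytes is also released from the ribosome to silence inflammatory messengers, had one of 0.55 ± 0.11 (adjusted p = 0.00492). Rpl35, at the tunnel exit, had signals of 4130.1, 3828 and 4340 on HP SNL arrays, against 3138.5, 3226 and 3372 on HP sham arrays, and 4293.5, 3343 and 3890.2 on LP SNL arrays, against 1723, 2641 and 2790.5 on LP sham arrays. LP sham replicate 1 was the low array for Rpl35, and its log2 difference was 0.34 ± 0.17 in HP and 0.71 ± 0.17 in LP, with no call for the difference between the lines (0.38 ± 0.24, adjusted p = 0.988).

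Rpl5 and Rpl11 join 5S ribosomal RNA in a particle that, when free of the ribosome, binds Mdm2 and stabilizes p53, and Rpl23 binds Mdm2 too. All 3 rose on average. Rpl5 had signals of 5407.5, 4581 and 4699 on HP SNL arrays, against 3518, 3934 and 3514 on HP sham arrays, and 4981, 4432 and 4727 on LP SNL arrays, against 3181, 4177 and 3479 on LP sham arrays. Its average log2 difference was 0.41 ± 0.08 (adjusted p = 0.00565). Rpl11 had an average of 0.46 ± 0.11 (adjusted p = 0.00994) and Rpl23 one of 0.33 ± 0.06 (adjusted p = 0.00421). Of 6 measured genes for proteins around the tunnel exit, 4 rose on average (Rpl19, Rpl22, Rpl26 and Rpl35), and Rpl23a and Rpl39 had average differences of 0.23 ± 0.10 and 0.23 ± 0.10 (adjusted p = 0.136 and 0.117). The 3 brightest members, Rpl3, Rps16 and Rps6, had average differences of 0.31 ± 0.07, 0.29 ± 0.07 and 0.39 ± 0.08, and all 3 passed. With the beta-actin ratio described further down as a covariate, Rpl3, Rps16, Rps6, Rpl5, Rpl11 and Rpl35 missed the threshold on average (adjusted p = 0.0837, 0.0994, 0.0610, 0.0563, 0.0728 and 0.0781), as did Rps16 with quantile normalization (adjusted p = 0.0968).

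**Figure D4:**
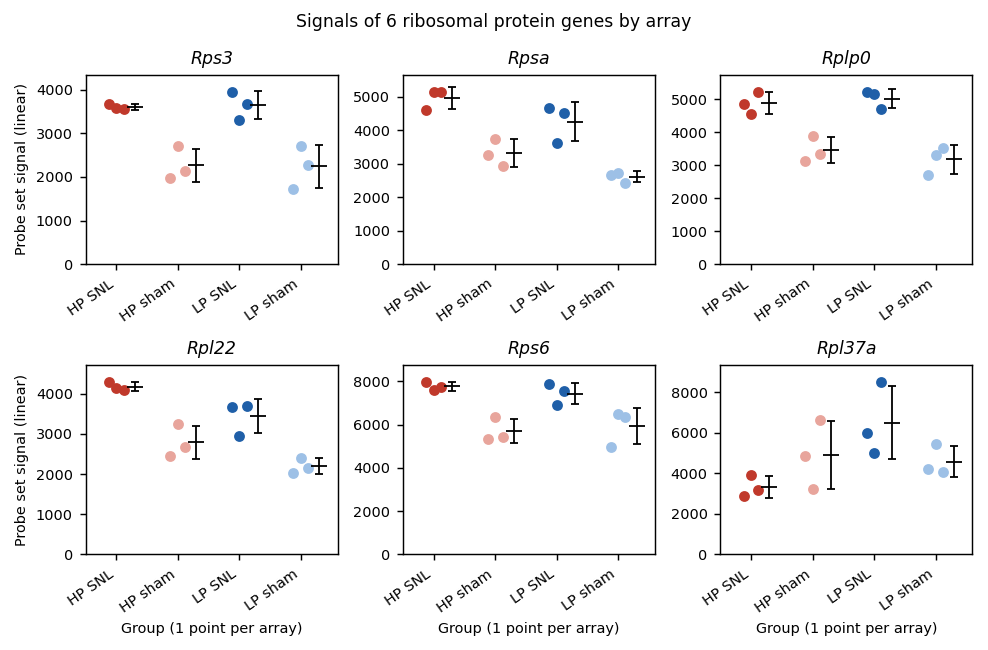
Signal on each array (points) for 6 ribosomal protein genes, with the group mean and SD beside the points (n = 3), on linear axes from 0. In the first 5 panels the 3 SNL arrays of each line lie above the 3 sham arrays of that line, and in the Rpl37a panel the groups overlap and the HP SNL arrays lie below the LP SNL arrays.

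Rpl37a and Rpl21 were the 2 members with differences of opposite sign in the lines, and neither passed a test. Rpl37a, a zinc-binding protein of the large subunit, had signals of 2873, 3904 and 3173 on HP SNL arrays, against 4870.4, 3215 and 6616 on HP sham arrays. The LP SNL arrays had 5981, 5007 and 8502, against 4209, 5466 and 4055 on LP sham arrays. The groups overlapped in both lines, and its log2 difference was -0.51 ± 0.27 in HP (adjusted p = 0.27) and 0.48 ± 0.27 in LP (adjusted p = 0.302). Its average, -0.02 ± 0.19, was above 0 in 7 of the alternative fits, among them 0.0022 with centring on the brightest other genes and 0.11 without HP sham replicate 3. Rpl21 had signals of 1717, 2044 and 1807 on HP SNL arrays, against 2067, 2092 and 1875 on HP sham arrays. The LP SNL arrays had 1875, 2405 and 2190.0, against 1573, 1714 and 2120.5 on LP sham arrays. Its log2 difference was -0.12 ± 0.14 in HP (adjusted p = 0.649), 0.26 ± 0.14 in LP (adjusted p = 0.257) and 0.07 ± 0.10 on average (adjusted p = 0.655). Rps15a had an average of 0.20 ± 0.13 (adjusted p = 0.296). Rpl27 had an average of 0.28 ± 0.11 (adjusted p = 0.0915).

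Paralogs whose symbol ends in l were dim. Rps27l, known in human and mouse cells as a target of p53, had signals of 147, 217 and 210.4 on HP SNL arrays, against 141, 165 and 162 on HP sham arrays, and 178, 200.4 and 188 on LP SNL arrays, against 99.4, 127 and 171 on LP sham arrays. Its average log2 difference of 0.41 ± 0.14 missed the threshold (adjusted p = 0.0607). Rpl3l, the paralog of Rpl3 in heart and skeletal muscle, had signals between 9.6 and 63.9 on the 12 arrays and the largest replicate SD of the family, 0.95 on the log2 scale, with an average of 0.64 ± 0.49 (adjusted p = 0.402). Rpl30 gave signals of 69.2 to 128 on its own probe set, with an average of 0.19 ± 0.16 (adjusted p = 0.456). A brighter probe set that the annotation gives to Rpl30 and its copies together had a mean signal of 4698 and a log2 difference of 0.50 ± 0.18 (adjusted p = 0.0751 over all probe sets). Another, given to Rps10l1, Rps10 and Rpl30 together, had a mean signal of 3272 and a log2 difference of 0.34 ± 0.10 on average (limma, adjusted p = 0.0302 over all probe sets).

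Ribosomal protein genes have many processed copies in the genome, and 32 further probe sets were annotated to several symbols of which at least 1 was a ribosomal protein gene. They stood outside the 42 members and were tested among all 15866 probe sets. Of these 32, 25 rose on average, 9 in HP and 9 in LP, and none fell, where 10.9%, 5.42% and 6.35% of all probe sets rose. All 32 differences were above 0 in each line, with medians of 0.40 in HP, 0.37 in LP and 0.40 on average. Rplp1, another stalk gene, was measured only by such a probe set, with a log2 difference of 0.40 ± 0.09 on average (adjusted p = 0.00769). Signals of a gene and its near-identical copies cannot be told apart here, and this can hold for members as well. Among the further probe sets of single members, that of Rps24 had an average of 0.58 ± 0.12 (adjusted p = 0.00677), and those of Rpl7 and Rpl14, at mean signals of 257 and 26.5, had 0.22 ± 0.14 and -0.07 ± 0.29.

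The line contrasts asked whether the LP and HP ganglia differed in these genes after the same operation. After sham surgery none of 42 members was called by limma (background 0% higher and 0.00961% lower, smallest adjusted p of a member = 0.429). An unadjusted p under 0.05 was seen for 6 members, where 1016 of 10411 genes tested had one. The median log2 difference, LP minus HP, was -0.10, and 32 of 42 were below 0 (76.2%), where 48.5% of all genes tested, 57% of the other genes among the brightest 10% and 61.4% of those among the brightest 2% were. This median was -0.015 without LP sham replicate 1, -0.16 without LP sham replicate 2, -0.06 without HP sham replicate 2, -0.03 with array weights and -0.24 with the beta-actin ratio as a covariate. All LP sham arrays were below all HP sham arrays for 7 members, Rpl18, Rpl22, Rpl35, Rpl41, Rps15a, Rps29 and Rpsa, where 7.4% of all genes, 11.9% of the other brightest 10% and 15.2% of the other brightest 2% were so placed, and above them for none (8.19% of all genes). The 3 with the smallest p were Rpl35 (-0.48 ± 0.17), Rps29 (-0.36 ± 0.14) and Rpsa (-0.34 ± 0.13), with adjusted p = 0.429, 0.434 and 0.435. The median of the other brightest 10% was -0.03 and that of the brightest 2% -0.05.

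After SNL none of 42 was called between the lines (background 0.0864% higher and 0.0864% lower). Among the members 1, Rpl37a, had an unadjusted p under 0.05 by limma, where 1110 of 10411 genes tested had one. The median, LP minus HP, was -0.09, again with 32 of 42 below 0 (76.2%), where 45.3% of all genes, 69.4% of the other brightest 10% and 83.7% of the other brightest 2% were. On every LP SNL array 9 members (21.4%) were lower than on every HP SNL array, near the 21.5% of the other brightest 10% and below the 29.9% of the other brightest 2% so placed, against 8.33% of all genes. Rpl37a was higher on every LP SNL array (9.1% of all genes), with a log2 difference of 0.95 ± 0.27 (adjusted p = 0.271). Rpl22 had -0.29 ± 0.13 and Rpl27 -0.32 ± 0.15 (adjusted p = 0.481 and 0.489). The median of the other brightest 10% was -0.07 and that of the brightest 2% -0.12. The median of the family was 0.007 with quantile normalization, -0.04 without LP SNL replicate 2 and -0.06 without HP SNL replicate 3. Its lowest value was -0.11 when 1 array was left out and -0.14 under the other alternatives.

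The interaction, the SNL minus sham difference in LP minus that in HP, called no member by limma (background 0%), and 490 of 10411 genes had an unadjusted p under 0.05. The median over the family was 0.02, the range -0.48 to 1.00, and 1 member had such a p. That member was Rpl37a, at 1.00 ± 0.39 (adjusted p = 0.988), followed by Rpl21 at 0.38 ± 0.19 and Rpl35 at 0.38 ± 0.24. The smallest SE of the interaction among the members was 0.13.

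Genes that work with the ribosome were read from lists of other members of the pathway. Rack1, a scaffold on the small subunit under another name, rose in HP by 0.48 ± 0.13 and in LP by 0.45 ± 0.13 (adjusted p = 0.0351 and 0.0428). The 16 measured genes with a TOP tract that encode no ribosomal protein had a median log2 difference of 0.32 on average. Of these, 12 rose (75%, where 13% of all genes did) and none fell (11.8% of all genes). Among them were the elongation factor genes Eef2 (0.40 ± 0.06, adjusted p = 0.00116) and Eef1b2 (0.51 ± 0.09, adjusted p = 0.00162) and the initiation factor gene Eif3f (0.59 ± 0.10, adjusted p = 0.00134). A pyrimidine run near the start was in 8 of 15 of their windows (53.3%).

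Of 43 initiation and elongation factor genes, some of them also TOP genes, 16 rose (37.2%) and 1 fell (2.33%) on average. Their median was 0.15, and of all genes 13% rose and 11.8% fell. Eif4a1, the helicase that opens messenger leaders, rose by 0.53 ± 0.06 (adjusted p = 0.00011), and Eif4g3, a scaffold of initiation, fell by 0.34 ± 0.08 on the log2 scale (adjusted p = 0.0107). Of 45 ribosome biogenesis genes 7 rose (15.6%, near the background of 13%) and 2 fell, with a median of 0.08. Fbl, the methyltransferase of ribosomal RNA, rose by 0.59 ± 0.12 (adjusted p = 0.00548), while Nolc1, a nucleolar chaperone, fell by 0.30 ± 0.08 (adjusted p = 0.0159). Of 71 mitochondrial ribosomal protein genes none rose and 9 fell (12.7%, near the background of 11.8%), with a median of -0.13, among them Mrps34 (-0.62 ± 0.13, adjusted p = 0.00609). A pyrimidine run was in 15.3% of their windows.

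Among 19 regulators of ribosomal protein synthesis, 2 rose (10.5%, against 13% of all genes) and 1 fell (5.26%, against 11.8%) on average. Myc, a transcription factor that drives ribosome production, had signals of 283, 243 and 282 on HP SNL arrays, against 236, 143.5 and 158 on HP sham arrays, and 272, 258 and 297 on LP SNL arrays, against 125, 130.2 and 130.4 on LP sham arrays. SNL arrays were above sham arrays of their line throughout, and Myc rose by 0.62 ± 0.17 in HP and by 1.09 ± 0.17 in LP (adjusted p = 0.0348 and 0.00194). Eif2ak3, an endoplasmic reticulum kinase that slows initiation, rose by 0.38 ± 0.11 on average (adjusted p = 0.0298). Mtor itself had a difference of -0.06 ± 0.06 (adjusted p = 0.511).

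**Figure D5:**
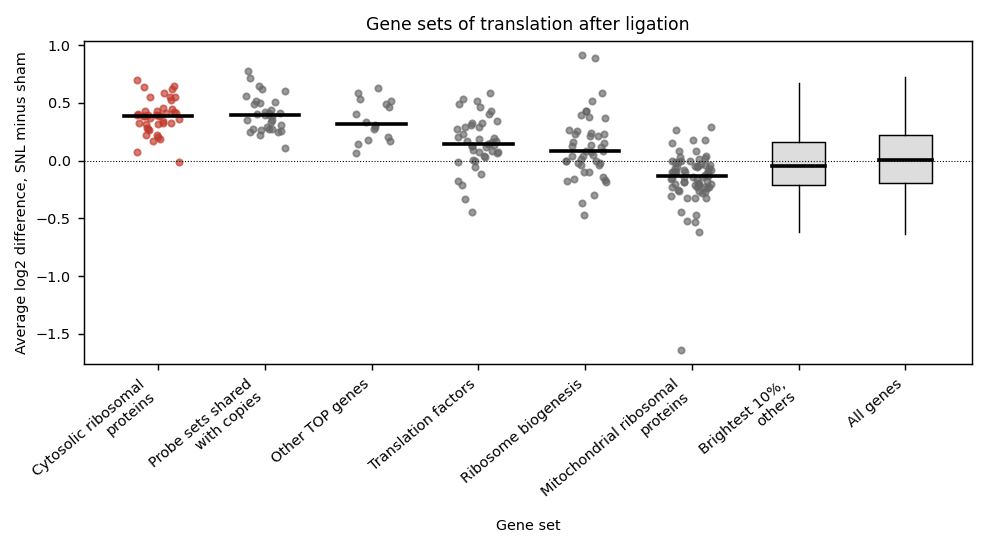
Average log2 difference over the lines, SNL minus sham, of the genes or probe sets of each list (points, with a black bar at the median). Boxes for the other genes among the brightest 10% and for all genes tested span the middle 50% of genes, with lines from the 5th to the 95th percentile and a bar at the median. The medians are 0.39 for ribosomal protein genes, 0.40 for probe sets shared with copies, 0.32 for other TOP genes and -0.13 for mitochondrial ribosomal proteins.

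Several measures of the tissue and RNA moved with ligation alongside the family. All 23 measured sensory neuron markers gave a signal of at least 93.3 on every array. Of these, 14 fell on average, and their summed signal was 67315 to 71861 in HP SNL, against 81676 to 87073 in HP sham, and 60626 to 66881 in LP SNL, against 80517 to 86089 in LP sham. Of 19 macrophage and monocyte markers 17 rose, with sums of 18402 to 21228 in HP SNL, against 8830.2 to 10343 in HP sham, and 16997 to 19819 in LP SNL, against 8368.5 to 8598 in LP sham. Of 14 fibroblast and endothelial markers 13 rose, and of 24 cell cycle genes 15 rose. Of 15 satellite glia and Schwann cell markers 3 rose and 2 fell, of 15 T and NK cell markers 2 rose, of 18 muscle markers 1 rose and 2 fell, and of 4 red blood cell markers none passed on average (limma, adjusted p over all genes), where 13% of all genes rose and 11.8% fell. In HP 5 of the 18 muscle markers fell, with a median of -0.52, and in LP none fell, with a median of -0.07. No marker of these lists was at 0 on any array. Their part in the result was not tested.

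The ratio of the 3′ to the 5′ probe set of beta-actin, a measure of RNA and labelling quality, was 1.12 to 1.34 in HP SNL, against 1.48 to 1.85 in HP sham, and 1.11 to 1.13 in LP SNL, against 0.99 to 1.88 in LP sham. In HP it did not overlap between the groups. With its log2 as a covariate, 0 members were called in HP, 11 in LP and 15 on average, with medians of 0.25, 0.34 and 0.28. On LP sham replicates 1, 2 and 3 the ratio was 1.88, 1.15 and 0.99, and the median log2 signal of the family was 11.53, 11.76 and 11.72. In HP the ratio and the operation cannot be told apart, and apart from this covariate its part in the result was not tested.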

How the data were processed

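The deposited values are linear intensities between 0 and 13930.7, for 15923 probe sets on each array. Total RNA came from Qiagen RNeasy preparations, per the labels' protocols. RMA is the only tool named, with no version, per the submitters' processing notes. The values are not plain RMA output, since every array's mean after trimming 2% of values at each end was 500.1, so the steps taken by the authors are not settled and anything further is not given in the sources used here.

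Values were used as log2(signal + 1) with no further normalization, and a fold change on this scale understates the change of dim genes. Probe sets were named through the platform annotation, with symbols updated by gene identifier in a RefSeq table of GRCr8 for 12748, by accession for 2 and kept for 33. Probe sets with several symbols (312) stood for no gene, and of 10411 genes 1868 had more than 1 probe set. The 4 group means were fitted to the 12 arrays together (limma 3.58.1, statmod 1.5.0, R 4.3.3, 8 residual and 2.05 prior degrees of freedom). Tests were two-sided, adjusted by Benjamini-Hochberg across the genes tested in that contrast, and called at 0.05. The fit was tested on simulated data with known changes. Signals are given per array, log2 differences ± SE. Correlations of log2 signals between arrays were 0.944 to 0.969 within a group and 0.921 to 0.965 between groups, and the median signal per array was 278.4 to 313.2. The number of arrays limits the precision.

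The members and the gene lists were chosen with earlier results of these data known. Members named with values were the stalk genes, Rpl5, Rpl11, Rps6, Rpsa, paralogs ending in l or y, the 3 brightest and 3 dimmest, up to 6 called members with the largest rise or fall of each contrast (or the 3 with the smallest p where fewer than 3 were called), and the member with the largest replicate spread. Rpl23 and others of the structural lists are named as list members, and Rpl21 for its p in the interaction. Alternatives were other scalings, pseudocounts of 16 and 32, leaving out the dimmest 25% of genes, other probe set rules, other variance settings, the actin ratio as a covariate, the replicate number as a block, only the arrays compared, and leaving out each array in turn.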

Additional observations from a re-analysis of the deposited data

How the results depend on the processing

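The medians of the family after ligation kept their sign and moved by less than the replicate SD under every alternative run, from 0.25 to 0.46 in HP, 0.32 to 0.44 in LP and 0.28 to 0.43 on average. No line contrast and no interaction called a member under any alternative. The counts of called members were less stable, and the cause was not tested. In HP the count of 20 was 9 with quantile normalization, 7 with median centring, 13 with each probe set tested separately, 7 with the replicate block, 0 with the actin covariate, 7 with only the arrays compared, up to 26 (array weights) under the others, and 0 to 19 without one array. In LP the count of 18 was 6 with median centring, 10 with the replicate block, 11 with the actin covariate, 4 with only the arrays compared, which leaves fewer samples for the spread, up to 26 (trended and robust variance) under the others, and 4 to 20 without one array. The average count of 32 was 15 with the actin covariate, 28 to 33 without one array and 28 to 34 under the others. With that covariate Rpl3, Rpl5, Rpl11, Rpl35, Rps6 and Rps16 missed the threshold on average (adjusted p = 0.0837, 0.0563, 0.0728, 0.0781, 0.0610 and 0.0994), as did Rps16 with quantile normalization (0.0968). The family median of LP minus HP after sham was -0.24 with the covariate.

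Reversals occurred in members that were not called. With the actin covariate, the HP difference was -0.042 for Rps27l and -0.22 for Rpl30, and the average was -0.075 for Rpl30, -0.034 for Rpl21 and 0.072 for Rpl37a. Leaving out 1 array gave HP differences of Rpl30 from -0.11 (without HP sham replicate 1) to 0.33, LP differences of Rpl3l from -0.25 (without LP SNL replicate 3) to 0.73, and averages of Rpl37a from -0.15 to 0.11. The HP difference of Rps29 was -0.024 with quantile normalization. The average of Rpl37a was 0.0022 with centring on the brightest other genes, 0.11 without HP sham replicate 3, 0.03 without HP SNL replicate 1, 0.05 without LP sham replicate 2, 0.0055 without LP SNL replicate 1 and 0.07 without LP SNL replicate 2. The replicate numbers, shared by the groups, did not pair the arrays: correlations of deviations between arrays of the same number ran from -0.16 to 0.10. With the replicate block 31 members were called on average. Of 1765 refits of single members, 1582 kept their direction and side of the threshold, 149 lost the call, 20 gained it and 14 changed sign.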

Other observations

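Paralogs that the symbol rule left out did not pass after ligation. Rpl7l1, a nucleolar relative of Rpl7, had signals of 568, 444 and 631 on HP SNL arrays, against 544, 419 and 519.7 on HP sham arrays. On LP SNL arrays it had 525, 849.8 and 612, against 984, 752 and 876 on LP sham arrays. Its log2 difference was 0.14 ± 0.20 in HP and -0.42 ± 0.20 in LP (adjusted p = 0.723 and 0.219). Rps4y2 had signals between 16 and 88.7 on the 12 arrays and an average log2 difference of 0.49 ± 0.50 (adjusted p = 0.546).

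Among the other TOP genes, Gas5, the host gene of several small nucleolar RNAs, had signals of 452, 501 and 494 on HP SNL arrays, against 273.4, 282 and 273.3 on HP sham arrays. On LP SNL arrays it had 429, 317 and 309.8, against 314, 269 and 191 on LP sham arrays. Gas5 rose in HP by 0.80 ± 0.18 (adjusted p = 0.0165), and in LP, where the groups overlapped, its difference was 0.46 ± 0.18 (adjusted p = 0.127).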
